A study of Caenorhabditis elegans with 2 samples.

Results

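The regions described here are autosomal ChIP-seq regions of the forkhead protein FKH-10 that lie in the promoters of neighbouring genes of Caenorhabditis elegans. A region was included when its summit fell in the promoter window, which reached from 1000 bp ahead of an annotated transcript start to 200 bp past it, of 2 or more protein-coding genes. There were 312 such regions among 2253 regions in the IDR list (irreproducible discovery rate, the authors' filter for reproducible regions, drawn from the pooled and both replicate lists). They made up 35.1% of the 889 autosomal IDR regions that lay in any promoter window, and the other 577 lay in the window of 1 gene. The study has 1 group of 2 biological replicates, each a pool of whole L4 larvae of both sexes, so no treatment or genotype was compared. All animals were of strain OP337, which carries the unc-119(ed3) mutation and the transgene wgIs377, a fkh-10 copy fused to TY1, EGFP and FLAG tags with an unc-119 rescue. The ChIP was against the tagged protein, so the regions report the transgene product, which was made in addition to whatever the untagged gene makes. The product of the untagged gene was not assayed, and no strain without the tag was analysed here. Whole animals mix all tissues, so a region occupied in many cells and one occupied strongly in few cells cannot be told apart.

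FKH-10 belongs to the forkhead family of transcription factors, whose winged-helix domain binds short A- and T-rich sites related to GTAAACA. In the compact worm genome, neighbouring genes on opposite strands often point away from each other, so that a single stretch of DNA lies upstream of both; such head-to-head pairs share a divergent promoter region. Genes on the same strand can follow each other in tandem, and many worm tandem genes form operons that are transcribed from a promoter ahead of the first gene. Many worm messages also receive a spliced leader in place of their original 5' end, so an annotated start can lie downstream of the place where transcription began.

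By the starts of the nearest genes, 273 of the 312 regions (87.5%) lay at head-to-head pairs and 12 (3.85%) at tandem pairs. At the other 27 regions (8.65%) the annotated bodies of both nearest genes overlapped. No region lay between genes that point at each other. None of the 224508 autosomal positions in promoter windows, taken every 100 bp, did so either, so this absence follows from the windows. Of the 27 overlapping pairs, 13 were on the same strand, and in the other 14 the nearest starts diverged as in a head-to-head pair. Counting every gene whose window held the summit, 292 of the 312 regions had at least 1 divergent pair of starts. The windows of 2 genes held 290 summits and those of 3 genes held 22. Together the regions touched 640 genes in 309 distinct nearest pairs, of which 3 held a second region each. Of these 640 genes, 4 also had a one-gene region. The regions were spread over all 5 autosomes, from 45 on chromosome V to 75 on the first chromosome.

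Sequences around strong summits of each arrangement are shown so that the DNA near the starts can be read and compared. They are the plus strand of the RefSeq WBcel235 (ce11) genome, up to 300 bases around the summit and cut at annotated exons. The first 4 are head-to-head pairs, the next is a tandem pair and the last is an overlapping set. Capitals mark CGCTCCAC or its reverse complement GTGGAGCG, chosen after the sequences were seen as the 8-letter word, at least 4 letters of it G or C, held by the most of the 6 sequences.
rpl-20 and Y17G9B.5, chrIV:4749918-4750217: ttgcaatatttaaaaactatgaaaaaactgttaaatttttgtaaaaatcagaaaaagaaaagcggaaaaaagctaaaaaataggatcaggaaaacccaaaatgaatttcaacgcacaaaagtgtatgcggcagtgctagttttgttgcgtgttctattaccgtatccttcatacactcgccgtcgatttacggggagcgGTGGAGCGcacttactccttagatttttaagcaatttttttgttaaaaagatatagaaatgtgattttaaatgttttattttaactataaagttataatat
rpl-15 and K11H12.8, chrIV:654767-655066: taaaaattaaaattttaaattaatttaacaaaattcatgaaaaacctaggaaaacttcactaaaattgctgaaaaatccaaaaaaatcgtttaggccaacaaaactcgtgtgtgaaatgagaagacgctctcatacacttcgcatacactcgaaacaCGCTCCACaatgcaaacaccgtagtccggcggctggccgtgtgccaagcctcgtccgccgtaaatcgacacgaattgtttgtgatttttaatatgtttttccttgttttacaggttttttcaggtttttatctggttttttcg
tasp-1 and K01G5.10, chrIII:10759105-10759306: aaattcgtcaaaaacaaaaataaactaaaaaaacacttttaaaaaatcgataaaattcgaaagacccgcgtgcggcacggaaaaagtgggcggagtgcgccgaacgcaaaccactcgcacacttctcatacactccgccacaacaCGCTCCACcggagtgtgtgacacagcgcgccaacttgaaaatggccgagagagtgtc
rpl-12 and lin-54, chrIV:13240652-13240872: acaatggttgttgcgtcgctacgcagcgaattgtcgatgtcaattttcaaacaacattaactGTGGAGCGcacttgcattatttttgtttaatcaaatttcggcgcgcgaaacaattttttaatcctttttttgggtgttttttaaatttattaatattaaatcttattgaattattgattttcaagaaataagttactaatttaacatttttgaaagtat
rps-28 and Y41D4B.4, chrIV:1659078-1659377: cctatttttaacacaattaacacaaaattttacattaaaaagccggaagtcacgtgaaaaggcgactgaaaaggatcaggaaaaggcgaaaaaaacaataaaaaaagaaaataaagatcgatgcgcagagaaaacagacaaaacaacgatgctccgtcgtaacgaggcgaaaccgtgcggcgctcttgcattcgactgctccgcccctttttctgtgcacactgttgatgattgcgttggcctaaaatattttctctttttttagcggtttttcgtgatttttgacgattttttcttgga
cox-6B, nduc-2 and Y71H2AM.20, chrIII:2785949-2786197: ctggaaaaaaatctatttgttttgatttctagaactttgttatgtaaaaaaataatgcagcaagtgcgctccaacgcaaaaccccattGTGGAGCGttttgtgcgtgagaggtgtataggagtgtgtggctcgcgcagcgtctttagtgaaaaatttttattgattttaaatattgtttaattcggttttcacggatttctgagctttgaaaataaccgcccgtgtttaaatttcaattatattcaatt

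The word was in 5 of the 6 sequences, and the next most frequent word of that kind was in 3. In tasp-1 and K01G5.10 it was centred on the summit, in rpl-12 and lin-54 it lay 4 bp away, in the cox-6B set 6 bp, in rpl-15 and K11H12.8 12 bp and in rpl-20 and Y17G9B.5 54 bp. The tandem sequence, at rps-28, lacked it. In the 306 regions that were not used to choose it, the word lay within 100 bp of the summit in 20 (6.54%, 95% Wilson interval 4.27 to 9.88). It was in 13 of the 577 one-gene regions (2.25%, 1.32 to 3.82), in 19 of 730 relaxed regions at 2 or more genes (2.60%, 1.67 to 4.03) and in 39 of 3827 relaxed regions at 1 gene (1.02%, 0.746 to 1.39). Relaxed regions here are autosomal promoter regions of the authors' permissive pooled list with no IDR summit within 100 bp. All 20 of those matches were in head-to-head pairs, 20 of 269, beside 0 of 11 tandem regions (interval up to 25.9%) and 0 of 26 overlapping regions (up to 12.9%). The matches were at a median of 34.5 bp from the summit. They were not confined to ribosomal protein promoters, since 17 of the 272 remaining regions without such a gene had one. These shares are a description with no test, and a match says only that the letters are there.

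The strongest region lay between rpl-20, which encodes a protein of the large ribosomal subunit, and Y17G9B.5. Its signal, the enrichment value that the authors' caller wrote for the region, was 260.5 in the IDR list, 122 in replicate 1 and 143 in replicate 2, the second highest of all 2253 IDR regions. The summit was 289 bp upstream of rpl-20 and 173 bp upstream of Y17G9B.5. The region between rpl-15, of the same ribosomal subunit, and K11H12.8 had a signal of 239, with 89.3 in replicate 1 and 156 in replicate 2. The region of tasp-1, a taspase-type protease, and K01G5.10 followed at 208, with 98.1 in replicate 1 and 106 in replicate 2. It was the only one of these 3 whose summit lay close to a start, 53 bp from that of tasp-1 and 732 bp from that of K01G5.10. The region of rpl-12 and lin-54, the DNA-binding subunit of the DREAM repressor complex, had a signal of 200.6, with 86.9 and 109 in replicates 1 and 2. Replicate 2 was the higher of the replicates in these 4 regions.

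At ska-3, a spindle and kinetochore protein, and rps-12, of the small ribosomal subunit, the order of the replicates was the other way. The signal was 192, replicate 1 giving 104.05 and replicate 2 giving 85.0. The same held for iff-2, the translation factor eIF5A, and F54C9.14, with a signal of 184, 97.1 in replicate 1 and 78.6 in replicate 2. This summit was 49 bp upstream of iff-2 and 886 bp upstream of F54C9.14, near the limit of the window. Together the 6 strongest head-to-head regions ran from 184 to 260.5, and 4 of them held a ribosomal protein gene.

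Among the next regions by signal, several held genes of protein folding. The cytosolic chaperonin genes cct-8 (137.6, with Y55F3AR.2), cct-7 (135, with T10B5.4) and cct-1 (123, with mig-5, a Dishevelled protein of Wnt signalling) each lay at a head-to-head region. The mitochondrial chaperonin gene hsp-60 shared a region of 133 with Y22D7AL.10, and hsp-90 an overlapping region of 122 with C47E8.4. At cct-8, cct-7, cct-1 and hsp-60 the start nearest to the summit was that of the partner gene. The ATP synthase gene atp-1 (155, with mcrs-1) and the elongation factor genes eef-2 (131, with clsp-1, a claspin of the replication checkpoint) and eef-1A.1 (122, with rfc-4, a clamp loader subunit) were also among the 25 strongest. So were npp-3, a nucleoporin, with top-2, a topoisomerase (124), and wapl-1, a cohesin release factor, with htz-1, the histone variant H2A.Z (119). Of the 100 strongest IDR regions, 24 were shared promoter regions, which are 13.8% of the whole IDR list. Another 27 were one-gene promoter regions, which are 577 of its 2253 regions. At the low end, F01D4.5 and ced-5, an engulfment gene, had the lowest signal of the set, 41.6, with no matching region in replicate 1 and 23.5 in replicate 2.

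The 12 tandem regions ran from 53.6 to 120, with a median of 66.9. The strongest lay at ddp-1, a small chaperone of the mitochondrial intermembrane space, and ttc-7, with a signal of 119.8, 57.98 in replicate 1 and 56.9 in replicate 2. The region of rps-28, of the small ribosomal subunit, and Y41D4B.4 had 112, with 38.0 in replicate 1 and 67.7 in replicate 2. At sec-61.G, a subunit of the protein translocation channel, and F32D8.13 the signal was 111, with 51.3 and 58.9 in replicates 1 and 2. The RNA polymerase II subunit gene rpb-11 (92.3, with W01G7.4), the region of F13G3.10 and mif-3, a relative of macrophage migration inhibitory factor (86.5), and rpl-29 with thoc-7, of the THO complex (74.1), completed the 6 strongest. All 12 summits were upstream of both starts, at a median of 218 bp from the nearer one, and all 12 had a matching region in both replicates. Operon membership was not checked, here or for overlapping pairs on the same strand, so a promoter of each gene's own is not implied. The lowest 3 were C33A12.3 with C33A12.4 (54.3), C29E4.12 with kle-2, a condensin subunit (54.3), and pfd-6, a prefoldin subunit, with rde-2 (53.6).

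The 27 overlapping regions ran from 42.01 to 133, with a median of 63.4. The strongest, at cox-6B, a cytochrome c oxidase subunit, nduc-2, a complex I subunit, and Y71H2AM.20, had 133, with 41.7 in replicate 1 and 88.5 in replicate 2. The region of tub-2, a Tubby-type protein, and Y71G12A.5 had 109, that of klp-11, a kinesin of ciliary transport, and F20C5.11 had 105, and that of pqn-51 and K11D12.14 had 102. At rbc-2, ndua-8, another complex I subunit, and Y54F10AM.15 the signal was 101, with 27.2 in replicate 1 and 69.1 in replicate 2. The region of ndua-8 and that of cox-6B were also the 2 strongest of those in 3 windows, before W03C9.5, rab-7, a small GTPase of late endosomes, and mex-1 (82.8). The lowest overlapping region was at clec-140 and hmg-11 (42.01). The spread within each arrangement was wide, and the medians of 58.1 for head-to-head, 66.9 for tandem and 63.4 for overlapping regions lay close to the 60.5 of one-gene regions. Over all 312 regions, 149 (47.8%) were above the median signal of the autosomal promoter regions, against 295 of 577 one-gene regions (51.1%), which did not pass the test (two-sided Fisher's exact test, p = 0.361). The share above the median was 46.5% of head-to-head and 6 of 12 tandem regions (Fisher's exact test, p = 1), with intervals of 40.7 to 52.4% and 25.4 to 74.6%.

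**Figure D1:**
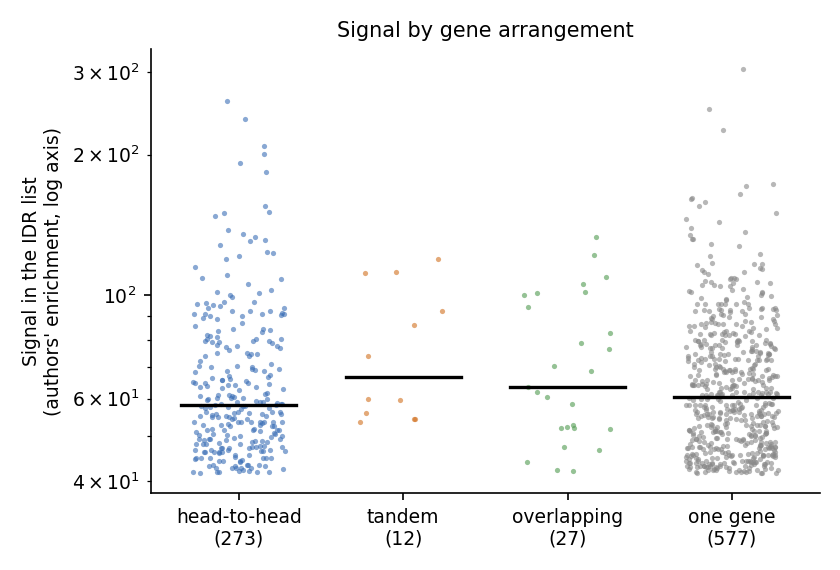
Signal in the IDR list, as the authors' enrichment on a log axis, for 273 head-to-head, 12 tandem and 27 overlapping shared promoter regions and 577 one-gene promoter regions. Each point is a region and each line is a median; the medians lie between 58.1 and 66.9 and the points overlap throughout.

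Regions at 2 or more genes were a larger part of the IDR list than of the permissive list. On the autosomes, 35.1% of the IDR promoter regions were at 2 or more genes (32.0 to 38.3), against 730 of 4557 relaxed promoter regions (16.02%, 15.0 to 17.1; two-sided Fisher's exact test, p = 2.09e-35). As a reference for the genome itself, 11.3% of the autosomal positions in promoter windows, taken every 100 bp, lay in 2 or more windows. Seen from the pooled list, 309 of its 1039 regions at 2 or more genes (29.7%) had an IDR summit within 100 bp, beside 568 of 4395 at 1 gene (12.9%) and 16.1% of all 5434 promoter regions. By arrangement the share was 29.955% of 898 head-to-head, 27.7% of 47 tandem and 28.7% of 94 overlapping regions. These tests count regions of 1 pair of replicates, so the intervals cover counting error only, and neighbouring regions are not fully independent.

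Head-to-head regions accounted for most of the difference. They were 30.7% of IDR and 13.8% of relaxed promoter regions (Fisher's exact test, adjusted p = 2.10e-30 over 4 arrangements). Overlapping pairs were 3.04% and 1.47% (Fisher's exact test, adjusted p = 0.00538). The call for overlapping pairs was lost with the outermost start of each gene (exact test, adjusted p = 0.135), in a narrower promoter window (0.0769), within 200 bp of the nearest start (0.235) and without replicate 2 (0.148). Tandem pairs were 1.35% and 0.746%, which did not pass the exact test (adjusted p = 0.140). By the positions in promoter windows, 9.16% were in head-to-head, 0.881% in tandem and 1.28% in overlapping windows.

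The excess was present on each autosome. The IDR share was lowest on chromosome V (29.4%) and highest on chromosome III (39.0%), and the relaxed share from 13.8% on chromosome IV to 18.6% on the first chromosome. On the X chromosome, where 4.51% of positions in promoter windows lay in 2 or more, 9 of 210 IDR promoter regions (4.29%) and 53 of 913 relaxed ones (5.81%) were at 2 or more genes (Fisher's exact test, p = 0.502).

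**Figure D2:**
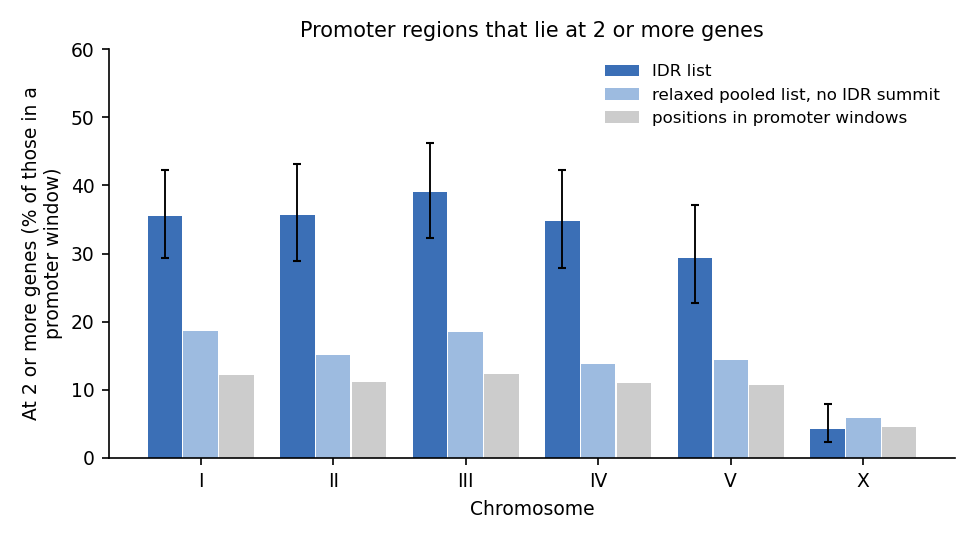
Share of promoter regions at 2 or more genes (y axis, %) on each chromosome (x axis), for the IDR list, the relaxed pooled list without IDR summits, and positions in promoter windows. Lines on the IDR bars are 95% Wilson intervals; on each autosome the IDR bar, 29.4 to 39.0%, stands above the others, while on X all 3 bars are at 4.29 to 5.81%.

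Between divergent starts, the summit lay anywhere from one start to the other. Of the 273 head-to-head summits, 254 (93.0%) lay between the nearest starts, and the other 19 lay no more than 200 bp inside one of the genes, the limit of the window. In the relaxed list 517 of 629 (82.2%) lay between. The central 50% of the interval held 161 of the 254 summits (63.4%), and 61.1% of those in the relaxed list. Where the starts were 1000 bp or more apart, at 27 IDR and 91 relaxed head-to-head regions, the window rule itself favours central summits. The distance between the starts had a median of 519 bp, from 74 to 1659 bp, and of 572 bp in the relaxed list. Of the 273 summits, 91 (33.3%) were within 100 bp of the nearest start. The signal did not follow the distance, with a Spearman coefficient of 0.0045 over 273 regions that share libraries, and its median was 56.2 to 59.4 in the 5 ranges of distance compared. Over all 312 regions the nearest start was at a median of 152.5 bp, against 261 bp for one-gene regions, a difference that requiring a second gene in reach itself favours.

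**Figure D3:**
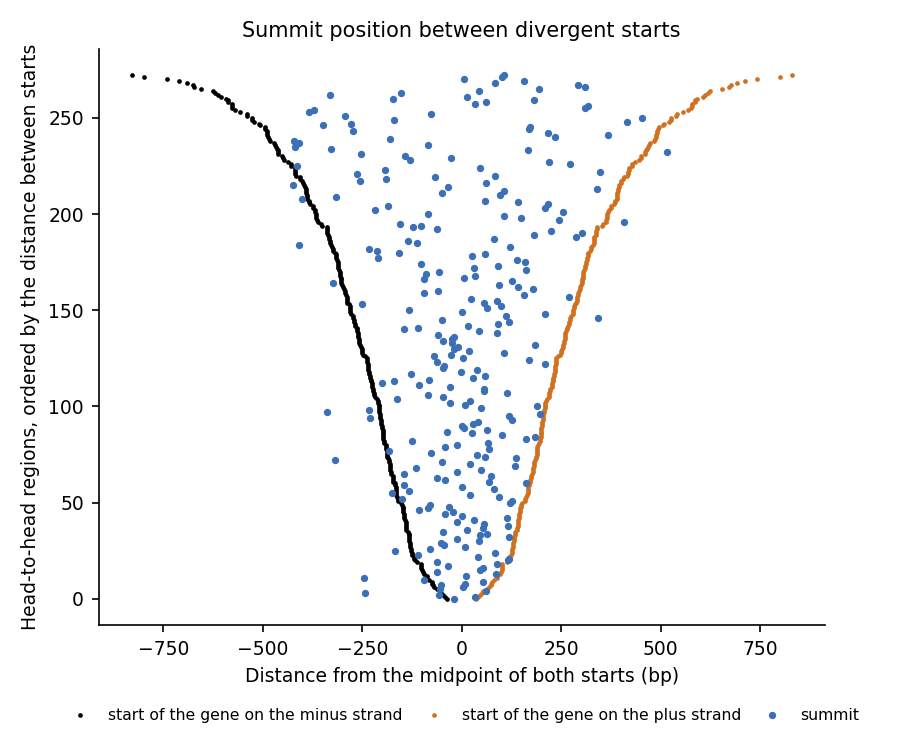
Position of the summit (blue) and of both nearest starts (black, minus strand; orange, plus strand) for the 273 head-to-head regions, as distance in bp from the midpoint of both starts, with regions ordered by the distance between starts. Most summits, 254 of 273, lie between the starts, with 161 in the central 50% of the interval.

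Membership rests on the limit of the window for the pairs with the farther start near 1000 bp. Just inside, copg-1, a coatomer subunit, and tsp-12, a tetraspanin, had the farther start at 983 bp and a signal of 44.7. T10E9.2 with T10E9.8 (979 bp, 46.9) and C18D11.3 with maa-1 (977 bp, 49.3) were next. Just outside, kars-1, the lysyl-tRNA synthetase, and kat-1 had the farther start at 1003 bp and a signal of 45.4. Next were mcp-1 with pcm-1, at 1009 bp with 46.2. The strongest of the pairs outside, up to 1049 bp, was K12H4.5 with spcs-3, a signal peptidase subunit, at 1039 bp with 155. The others up to there had signals from 43.4 to 78.3, and several lay nearer the limit than K12H4.5.

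Genes of the ribosome were the most numerous of the 20 gene lists. Of 59 autosomal ribosomal protein genes with an IDR promoter region, 41 (69.5%) were at a shared region, beside 640 of all 1186 such genes (54.0%). Because a shared region brings at least 2 genes, this gene share is higher than the share of regions. Those 41 genes lay at 38 regions with a median signal of 70.6, against 58.8 for all 312. In 19 of the 38 the nearest start was that of a ribosomal protein gene, and in the other 19 it was that of the partner. Partners differed widely: hsr-9, a relative of the checkpoint protein 53BP1, with rps-19 (148), ekl-4 with rps-20 (151), col-38, a cuticle collagen, with rpl-5 (96.2), and polh-1, a translesion polymerase, with rps-22 (68.9).

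Other lists of basic cell functions are given beside the 54.0% of all bound genes, which several of them lay near. A gene is called bound here when its promoter window held an IDR summit, whether or not its start was the nearest. At shared regions were 12 of 15 translation factors, 14 of 19 chaperones, 12 of 19 respiratory chain and ATP synthase genes, 15 of 20 splicing and RNA-binding genes and 18 of 26 membrane traffic genes. The 14 chaperone regions had a median signal of 76.3, and at 4 of them the nearest start was that of a chaperone gene. In the cell division list 20 of 23 bound genes (87.0%) were at 21 shared regions, among them lin-54, ska-3 and rfc-4, described with their partners, and the median signal was 55.2. The list was matched by gene symbol, so it also counts klp-11, known for ciliary transport, with 2 of the 21 regions. The transcription and Mediator list had 9 of 11, with mdt-19 sharing a region of 109 with apb-1, an adaptor subunit of clathrin coats, and taf-4 a region of 80.5 with pqn-59. The nuclear pore list had 8 of 13, mitochondrial ribosomal proteins 8 of 11, the proteasome 5 of 8 and aminoacyl-tRNA synthetases 3 of 5. In the proteasome list, rpn-3 shared a region of 93.6 with hsp-110, a chaperone; mrps-7 shared one of 84.4 with Y57G11C.3, and nars-1 one of 55.2 with nduf-6.

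In the lists of more specialised genes the counts were small. Of all 17242 autosomal protein-coding genes, in a list or not, 1186 had an IDR promoter region. Among 29 synaptic genes 8 had an IDR promoter region, and 1 of these, ric-19, which acts in dense-core vesicle maturation, was at a shared region (59.9, with pmlr-1). Of 247 nuclear hormone receptor genes 3 were bound, 2 of them at shared regions, nhr-47 with dnj-19 (64.5) and F44E7.9 with nhr-142 (42.5). Of 151 cuticle collagen genes 5 were bound and 3 shared a region, and the nearest start was that of a collagen gene at 0 of the 3 regions. No gene of the histone list and none of the forkhead list was at a shared region, from 2 bound genes in each list. The histone list was matched by gene symbol and did not include htz-1, the H2A.Z gene that shares a region with wapl-1. Further lists gave 2 of 4 vacuolar ATPase, 3 of 7 DNA repair and 2 of 6 ubiquitin pathway genes. At the vacuolar ATPase and DNA repair regions the nearest start was always that of a gene outside the list. These counts are descriptions beside the 54.0% of all bound genes, and no list was tested.

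At 6 regions, all head-to-head, both nearest genes belonged to the ribosomal protein, chaperone, respiratory chain and ATP synthase, translation factor or histone lists. Mitochondrial ribosomal proteins and aminoacyl-tRNA synthetases are lists of their own and were not counted here. The strongest joined rps-1 to ifet-1, a translational repressor that binds eIF4E (106; 38.5 in replicate 1 and 77.6 in replicate 2). Pairs of ribosomal protein genes were rpl-24.1 with rps-10 (70.0), rps-30 with rpl-39 (65.7) and rps-14 with rpl-36 (58.5). The other 2 were dnj-29, a DnaJ chaperone, with ndua-2, of complex I (56.3), and nuo-1, of complex I, with rpl-36.A (41.8). A listed gene of any kind was at 151 of the 312 regions, both nearest genes were listed at 28, and no listed gene was at the other 161.

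Both replicates held most of the regions, which the IDR filter for reproducible regions itself favours. A region with a summit within 100 bp was present in the replicate 1 list for 292 of the 312, in the replicate 2 list for 304 and in both for 284. These lists are permissive, with 30000 and 28886 regions. Of the 577 one-gene regions, 533 had a match in replicate 1, 550 in replicate 2 and 509 in both. Replicate 1 had a median signal of 24.8 and replicate 2 one of 34.2, and 221 of the 284 regions were higher in replicate 2. The log2 ratio of replicate 1 to replicate 2 was -0.45 ± 0.68 (SD over 284 regions), close to the -0.43 ± 0.71 of one-gene regions. Across those 284 regions the replicates had a Spearman coefficient of 0.526, and 0.446 across one-gene regions, as a description with no p. Of the 312 regions, 69.9% had a match among as many of the strongest regions of the replicate 1 list as the IDR list holds, against 69.7% of one-gene regions, and in replicate 2 the shares were 77.9% and 79.4% (Fisher's exact test, adjusted p = 1 for both). With regions chosen from replicate 1 alone, the replicate 2 shares were 67.7% of shared and 58.1% of one-gene regions, which passed (exact test, adjusted p = 0.0183).

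The 3 lowest and the 3 highest ratios of replicate 1 to replicate 2 were as follows. For rpl-23 and swp-1, replicate 1 gave a signal of 7.73 and replicate 2 one of 52.5. At dli-1, a dynein light intermediate chain, with tin-9.2 and exos-4.1 it was 6.85 and 37.6, and at nfyc-1 and rpt-4, a proteasome ATPase, 7.39 and 37.1. In the other direction epc-1, a chromatin protein of the NuA4 complex, and Y111B2A.12 had 43.8 in replicate 1 and 6.38 in replicate 2. At atx-2, ataxin 2, and ecps-1 it was 41.6 and 11.03, and at fahd-1 and ZK688.5 36.6 and 17.1. Only 2 replicates exist, so for these regions neither value can be called the typical one, and other regions, such as those of ndua-8 and of C15C8.5, differed by more than fahd-1 in the direction of replicate 2.

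**Figure D4:**
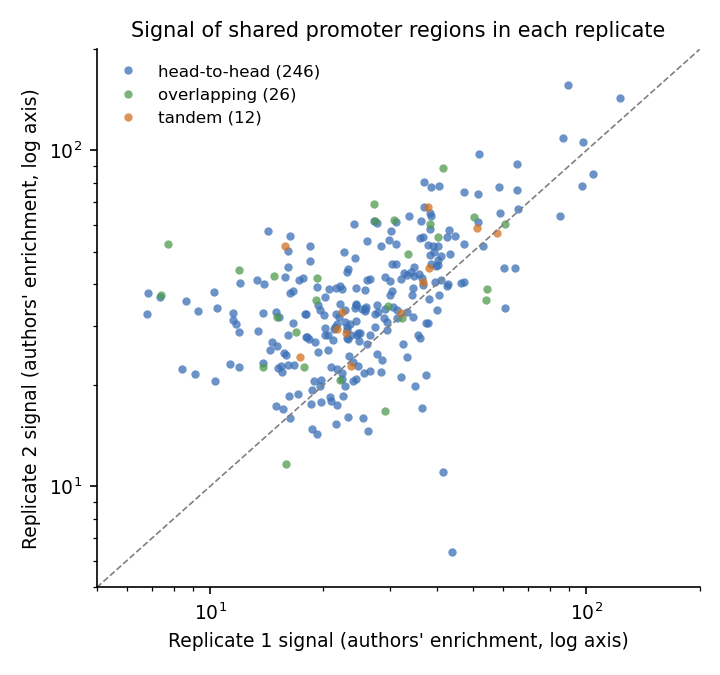
Signal of the 284 shared promoter regions present in both replicate lists, replicate 1 on the x axis and replicate 2 on the y axis (authors' enrichment, log axes), coloured by arrangement; the dashed line marks equal values. Most points, 221 of 284, lie above the line, and the farthest from it are rpl-23 with swp-1 and epc-1 with Y111B2A.12.

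The shared regions held a GAGA repeat less often than one-gene regions. The word GAGAGAG, or its reverse complement, lay within 100 bp of the summit in 28 of 312 shared regions (8.97%, 6.28 to 12.7) and in 20.1% of the 577 one-gene regions (17.04 to 23.6; Fisher's exact test, adjusted p = 0.000102 over 10 motifs). In the relaxed list the shares were 5.21% at 2 or more genes and 6.74% at 1 gene. Within regions of 35 to 50% G and C the shares were 9.95% and 18.3% and the adjusted p was 0.0539, so the call was lost there. The G and C content within 100 bp of the summit was 40.8% ± 6.996 (SD) in shared and 43.1% ± 7.12 in one-gene regions, and its part in the result was not tested further. The repeat was present at tasp-1 with K01G5.10, at apb-1 with mdt-19, and at rpl-29 with thoc-7.

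In the regions as defined here, no other of the 10 motifs passed the test. The forkhead consensus, counted as GTAAACA or GTAAATA or ATAAACA or ATAAATA on either strand, lay in 63 of 312 shared regions (20.2%) and 81 of 577 one-gene regions (14.04%; Fisher's exact test, adjusted p = 0.109). It passed without replicate 2, at 18.6% and 11.4% (exact test, adjusted p = 0.0319). In the relaxed list the consensus was in 27.4% of regions at 2 or more genes and 20.1% at 1 gene. Its core GTAAACA alone, which the consensus includes, was in 8 shared regions (2.56%) and 22 one-gene regions (3.81%). Among the strong regions, iff-2 with F54C9.14 and scpr-1 with gpap-1 (115.02) held the consensus. The TATA word TATAAA was in 15.7% of shared and 11.1% of one-gene regions (exact test, adjusted p = 0.191). The E2F words TTTCCCGC, TTTGGCGC, TTTCGCGC and TTTGCCGC were in 9.62% and 6.76%, and one lay beside rpl-12 and lin-54. They passed in the wider window that reached from 2000 bp ahead of a start to 500 bp past it, at 9.45% and 5.18% (exact test, adjusted p = 0.0300). Head-to-head and tandem regions were compared on the same 10 motifs and 0 passed by Fisher's exact test, adjusted or not (lowest p = 0.294), with 12 tandem regions.

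**Figure D5:**
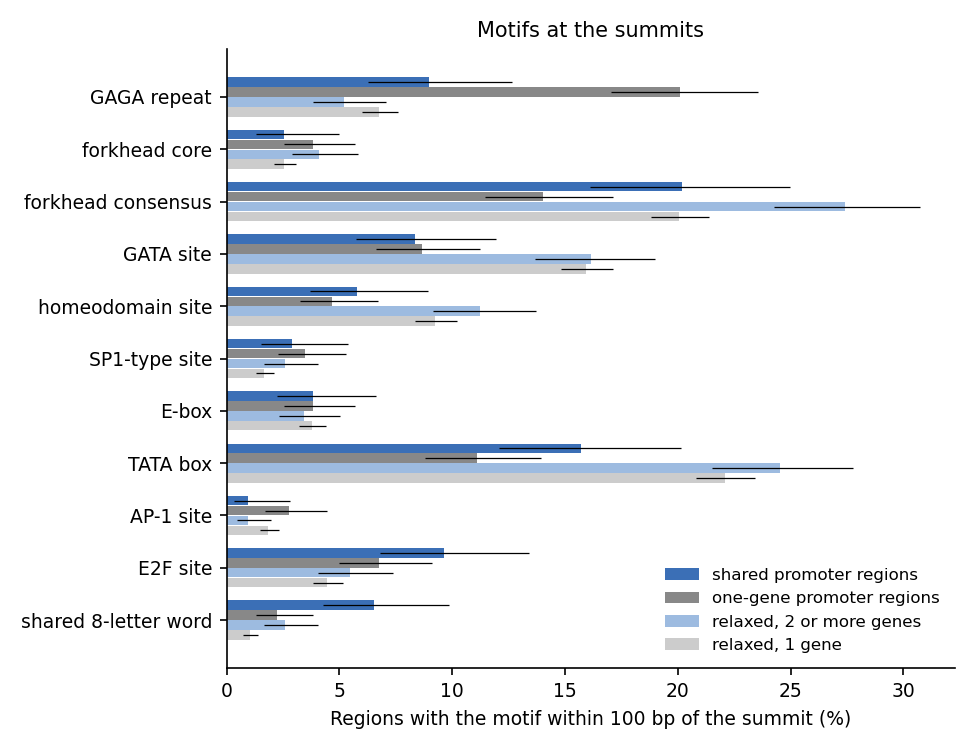
Share of regions (x axis, %) with each motif within 100 bp of the summit, for 312 shared and 577 one-gene promoter regions of the IDR list and for relaxed regions at 2 or more genes and at 1 gene; lines are 95% Wilson intervals. The GAGA repeat stands at 8.97% in shared and 20.1% in one-gene regions, and the 8-letter word taken from the printed sequences, counted in the 306 regions not used to choose it, at 6.54% and 2.25%.

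The share of summits beside a noncoding RNA gene did not pass the test against one-gene regions. Some part of one lay within 200 bp of 46 of the 312 summits (14.7%) and of 88 of the 577 (15.3%; Fisher's exact test, p = 0.922). Most were unclassified ncRNA genes, at 41 shared regions, with 4 small nucleolar RNA genes and 1 each of miRNA, tRNA, small nuclear and antisense RNA genes. Of the 312 summits, 50 fell in an annotated exon.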

How the data were processed

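Regions of FKH-10 ChIP-seq came from 2 biological replicates. Per the labels, fragments were 150 to 350 bp; the authors' deposited file notes say that the lists derive from alignments and a control library, with the IDR list drawn from the pooled and both replicate lists. The sources used here name no caller, aligner or threshold, and depth in reads is unknown. The deposited signal column is the authors' enrichment per region; it was used only to rank and describe regions, and the summit offset to place them (ce11). The ce10 lists were not used.

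Region ends were checked against the WBcel235 chromosome lengths. Starts were those of all transcripts of 19973 nuclear protein-coding genes of Ensembl release 115. Summits within 100 bp were matched. Shares were compared by two-sided Fisher's exact tests with Benjamini-Hochberg adjustment and a threshold of 0.05, with 95% Wilson intervals, in Python 3.11.15 with SciPy 1.17.1, pandas 2.3.3, numpy 2.4.6 and matplotlib 3.10.9. Summit matching, the arrangement and window rules, motif finding and the adjusted test of motif shares were tried on simulated data, and the other steps were not. The sequence of 1 tandem region is not reported here.

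The regions and lists were chosen with earlier results of these data known. Regions to name were taken from several groups. These were the 25 highest, the 6 highest and 3 lowest of each arrangement, the 3 highest at 3 genes and the 3 most extreme replicate ratios each way. Up to 4 for each gene list and the pairs with both genes in the core lists were added. Not all of these were described. Among the 25 highest, tag-340 with nhl-2 (150) and ceh-38 with malt-1 (131) were left out, as were some of the lowest regions. The regions beside the window limit, the 8-letter word and the partners of ribosomal protein genes were chosen after values were seen. Alternatives were other windows, starts, match distances, filters and single replicates. The notes do not say whether the replicates were separate cultures, so tests over regions say nothing of variation between cultures.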

Additional observations from a re-analysis of the deposited data

Results flagged for a closer look

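One result differed between chromosomes. The odds of lying at 2 or more genes, in IDR against relaxed promoter regions, were 2.83 times as high on the autosomes and 0.727 times as high on X. The ratio of these odds ratios was 3.90 (95% interval 1.86 to 8.18; Zelen's exact test of equal odds ratios, two-sided p = 8.12e-05), with 9 IDR regions at 2 or more genes on X. This test was added after the data were seen.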

How the results depend on the processing

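The larger IDR share at 2 or more genes, and that at head-to-head pairs, kept its direction and its side of the threshold under every alternative run, single replicates included; 127 of the 160 values recomputed over all results did. Differences below are in percentage points, IDR less relaxed or shared less one-gene regions. For overlapping pairs (1.57) the call was lost with the outermost start (0.713), a window of 500 bp upstream (1.07), a summit within 200 bp of the nearest start (1.46) and without replicate 2 (0.807 to 1.62 over single replicates). For tandem pairs (0.604) the sign turned with windows of 2000 bp (-0.725) and 500 bp (-0.104) and near starts (-0.255), and the call was made against the stronger 50% of the background (0.878); single replicates gave 0.732 to 0.821. Motifs passing numbered 1, or 0 at 35 to 50% G and C (GAGA repeat, -8.38), 2 with the 2000 bp window (the E2F site added), and 1 to 2 with single replicates, where the forkhead consensus difference was 7.26 without replicate 2.

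Other differences made no call as reported and turned sign. The share above the median signal (-3.37) became 2.44 with the 500 bp window, 8.42 in the stronger 50% of the IDR regions and -0.251 to 2.51 with single replicates. Head-to-head less tandem (-3.48) was -4.72 to 2.33 with single replicates, -8.24 in the stronger 50%, -11.8 without the dense runs of regions and -17.1 with the outermost start, none past the threshold. Noncoding genes (-0.508) gave 0.143 at 100 bp, 3.58 with the 500 bp window, 0.792 in the stronger 50%, 0.198 for the strongest region of each gene set, 0.494 near starts and -1.64 to 0.0415 with single replicates. Matches among the strongest regions of replicate 1 (0.201) gave -3.53 with the 500 bp window, -2.17 near starts, -3.34 with summits within 200 bp and -0.460 without the dense runs (30 kb or longer), which hold 4 of the shared regions; the replicate left out gave 1.53. In replicate 2 (-1.49) they were 0.988 with the 500 bp window, 3.43 in the stronger 50%, 2.12 in the whole list and 9.60 without replicate 2 (exact test, adjusted p = 0.0183). With single replicates TATA gave -0.286 to 4.27 and the forkhead core -0.586 to 0.506, each turning without replicate 1. The cause was not tested. Near starts and dense runs were added after the data were seen. No paired analysis was possible because there is 1 group. Depth in reads, which limits weak regions, is unknown.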
